A study of Mus musculus with 17 samples.

Results

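The genes described are those of the lipopolysaccharide (LPS) receptor complex and of Toll-like receptor signalling: *Tlr4*, *Ly96*, *Cd14*, *Lbp*, *Tlr2*, *Tlr3*, *Myd88*, *Irak3*, *Irak4* and *Tirap*, listed by name and not by their values. Of these 10 genes, 8 had a probe set that names them and no other gene, 11 probe sets in all among 22626 tested, and the array measured 12393 genes in total. *Irak3* and *Irak4* had no such probe set and were not analysed here. The arrays measured whole lungs of 17 male mice, 1 array per mouse. Wild-type C57BL/6J mice received saline and were studied at 22 h (n = 4), or received LPS and were studied at 7 h (n = 3) or 22 h (n = 3). Mice of genotype *NOS2*-/-, which lack inducible nitric oxide synthase in every cell from birth, received saline (22 h, n = 1) or LPS (7 h, n = 3, and 22 h, n = 3). LPS was from *Escherichia coli* O111:B4 and was given intravenously at 20 mg/kg. No saline mouse was studied at 7 h, so every LPS group was compared with saline mice of 22 h. The labels give neither the age of the mice nor the strain of the *NOS2*-/- mice.

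LPS of Gram-negative bacteria is lifted out of aggregates by LPS-binding protein, passed to CD14, and handed to the complex of Toll-like receptor 4 with MD-2, the product of *Ly96*. The occupied receptor recruits the bridging adaptor TIRAP and the adaptor MyD88, and IRAK kinases then activate NF-kB. Toll-like receptor 2 binds bacterial lipopeptides and signals through the same adaptors, while Toll-like receptor 3 binds double-stranded RNA and uses the adaptor TRIF. In the lung these receptors are found on macrophages, neutrophils, endothelium and epithelium.

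Endothelial markers (11 of 11) and alveolar type 2 markers (8 of 8) lay above the array median in wild-type saline lungs. Replicates correlated at r of 0.99 or more over all probe sets, except for wild-type LPS 22 h replicate 2, at 0.955 and 0.949 with the other mice of its group. The *NOS2*-/- saline mouse carried squamous epithelium markers at a mean log2 signal 1.85 above its array median, against -1.06 to -0.95 in wild-type saline mice, and skeletal muscle markers at 1.03 against -1.64 to -1.49. The *Nos2* probe set (1420393_at) did not read lower in *NOS2*-/- mice, at 8.99 to 9.25 at 22 h after LPS against 8.19 to 8.80 in wild-type mice, and with its place relative to the deleted part unknown it does not check the genotype labels. Replicate 2 of wild-type LPS 22 h enters the common estimate of spread, and without it more probe sets were called in every comparison, for instance 26.9% in place of 2.01% between the genotypes at 7 h after LPS.

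Of the 8 genes measured, 8 rose in wild-type lungs at 7 h after LPS and 7 at 22 h, all except *Tlr3*, where 14.4% and 12.8% of all probe sets rose. Of the 8, 6 rose in *NOS2*-/- lungs at 7 h, where 8.78% of all probe sets rose, and 5 at 22 h, where 11.6% rose. None of the 8 fell in these comparisons, where 13.7% to 20.0% of all probe sets fell. The median log2 fold change of the 8 genes was 1.37 in wild-type lungs at 7 h and 0.70 at 22 h, against -0.05 and 0.00 over all probe sets. It was 1.21 in *NOS2*-/- lungs at 7 h and 0.92 at 22 h, against 0.04 and 0.03. With the 4 wild-type saline mice as control, 7 of the 8 rose in *NOS2*-/- lungs at each time, where 15.4% of all probe sets rose at 7 h and 17.9% at 22 h.

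**Figure D1:**
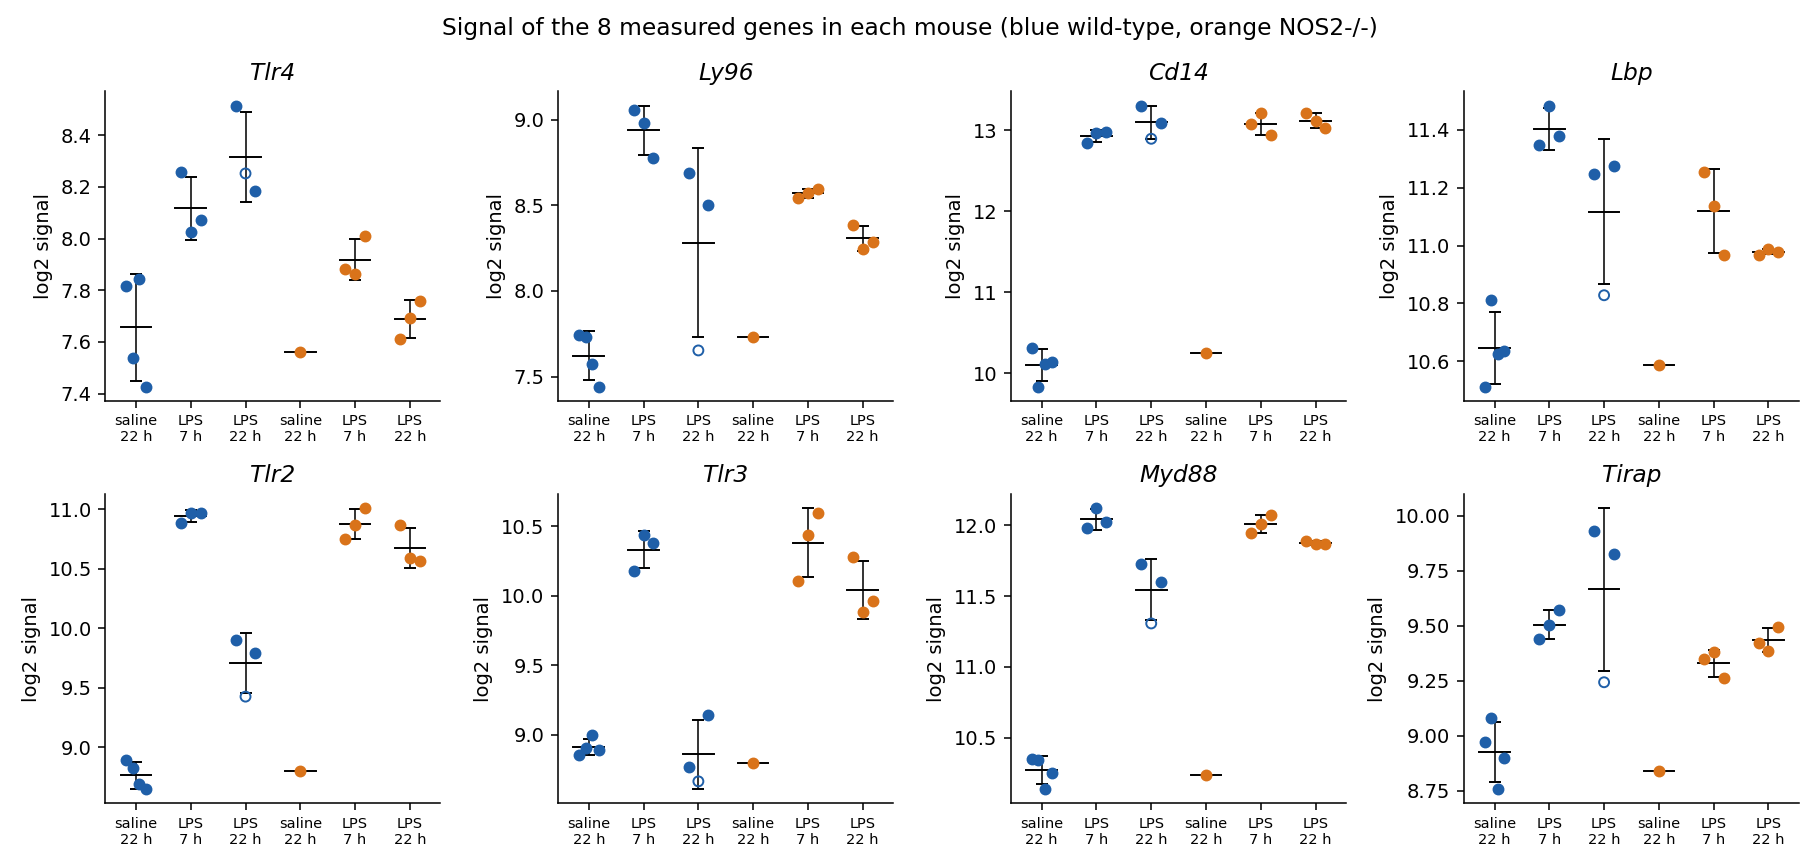
Log2 signal (vertical axis) of the probe set that represents each of the 8 genes, 1 panel per gene, in the 6 groups of mice (horizontal axis). Each point is 1 mouse, horizontal lines are group means, bars are SD, and the open circle is wild-type LPS 22 h replicate 2. *Cd14* sits near 13 in every LPS group, while *Tlr2* and *Tlr3* come down in wild-type mice at 22 h and stay up in *NOS2*-/- mice.

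*Cd14*, the receptor that loads LPS onto Toll-like receptor 4, showed the highest fold change of the 8 genes. Its log2 signal was 10.32, 9.84, 10.11 and 10.15 in the 4 wild-type saline mice and 10.26 in the *NOS2*-/- saline mouse. After LPS it was 12.85, 12.97 and 12.98 in wild-type mice at 7 h and 13.31, 12.90 and 13.10 at 22 h. The *NOS2*-/- mice read 13.08, 13.21 and 12.94 at 7 h and 13.22, 13.12 and 13.03 at 22 h. All 12 LPS mice lay above all 5 saline mice, and among the LPS groups only wild-type mice at 7 h and *NOS2*-/- mice at 22 h did not overlap. The rise was 7.12-fold in wild-type mice at 7 h (log2 2.83, SE 0.11, adjusted p = 4.2e-11) and 7.98-fold at 22 h (log2 3.00, SE 0.11, adjusted p = 2.98e-11). The rise in *NOS2*-/- mice was 7.07-fold at 7 h (SE 0.17 on the log2 scale, adjusted p = 1.53e-08) and 7.28-fold at 22 h (SE 0.17, adjusted p = 1.37e-08). The genotypes differed at 22 h by 0.02 on the log2 scale, with a 95% confidence interval of -0.24 to 0.28.

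*Ly96* encodes MD-2, the subunit that holds the lipid part of LPS. Its log2 signal was 7.74, 7.73, 7.58 and 7.44 in wild-type saline mice and 7.73 in the *NOS2*-/- saline mouse. It was 9.06, 8.98 and 8.77 in wild-type mice at 7 h after LPS and 8.69, 7.65 and 8.50 at 22 h, and 8.54, 8.57 and 8.60 in *NOS2*-/- mice at 7 h and 8.39, 8.25 and 8.29 at 22 h. The value of 7.65 belongs to replicate 2 of wild-type LPS 22 h, lies within the range of the saline mice, and is the single LPS mouse that does. *Ly96* rose 2.49-fold in wild-type mice at 7 h (SE 0.18 on the log2 scale, adjusted p = 2.54e-05) and 1.58-fold at 22 h (SE 0.18, adjusted p = 0.0085). The call in wild-type mice at 22 h was lost with the compared groups fitted alone in limma (adjusted p = 0.0849). *Ly96* of *NOS2*-/- mice rose 1.79-fold at 7 h (SE 0.27, adjusted p = 0.0329), and at 22 h the 1.49-fold difference was not called (adjusted p = 0.13). That difference was called with the wild-type saline mice as control (adjusted p = 0.00516) and without replicate 2 of wild-type LPS 22 h (adjusted p = 0.00105).

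*Tlr4* encodes the signalling receptor itself. Its log2 signal was 7.82, 7.54, 7.84 and 7.43 in wild-type saline mice, 8.26, 8.03 and 8.07 in wild-type mice at 7 h after LPS, and 8.51, 8.25 and 8.18 at 22 h. The *NOS2*-/- mice read 7.56 with saline, 7.88, 7.86 and 8.01 at 7 h, and 7.61, 7.69 and 7.76 at 22 h. By this probe set (1418163_at) the 6 wild-type LPS mice lay above every other mouse, the closest pair at 8.03 and 8.01. The *NOS2*-/- mice at 22 h lay inside the range of the wild-type saline mice. The rise in wild-type mice was 1.38-fold at 7 h (log2 0.46, SE 0.11, adjusted p = 0.00369) and 1.58-fold at 22 h (log2 0.66, SE 0.11, adjusted p = 0.000189). In *NOS2*-/- mice the differences from saline, 0.36 at 7 h and 0.13 at 22 h (log2, SE 0.16), were not called, with adjusted p values of 0.141 and 0.647. The other *Tlr4* probe set (1418162_at) was called in wild-type mice too, by 0.50 at 7 h and 0.44 at 22 h, and its values in *NOS2*-/- mice were -0.13 and -0.30. By it, replicate 2 of wild-type LPS 22 h read 6.76, inside the wild-type saline range of 6.53 to 6.96. The *NOS2*-/- mice at 22 h read 6.41 to 6.45, below every saline mouse.

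*Lbp*, which encodes LPS-binding protein, an acute-phase protein made chiefly by the liver, was measured in a tissue where 1 of 7 hepatocyte markers lay above the array median without LPS. Its log2 signal was 10.51, 10.81, 10.63 and 10.64 in wild-type saline mice and 10.59 in the *NOS2*-/- saline mouse. After LPS it was 11.35, 11.48 and 11.38 in wild-type mice at 7 h, 11.25, 10.83 and 11.28 at 22 h, and 11.26, 11.14 and 10.97 in *NOS2*-/- mice at 7 h and 10.97, 10.99 and 10.98 at 22 h. Every LPS mouse was above every saline mouse, replicate 2 of wild-type LPS 22 h by the smallest margin. *Lbp* rose 1.69-fold in wild-type mice at 7 h (adjusted p = 3.79e-05) and 1.38-fold at 22 h (adjusted p = 0.00248), each with an SE of 0.10 on the log2 scale. The rise in *NOS2*-/- mice was 1.45-fold at 7 h (adjusted p = 0.0242), and the 1.31-fold difference at 22 h was not called (adjusted p = 0.0841). It was called with the wild-type saline mice as control (adjusted p = 0.0192), without replicate 2 of wild-type LPS 22 h (adjusted p = 0.00922), after quantile normalization (adjusted p = 0.0151) and with array medians subtracted (adjusted p = 0.0481).

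*Tlr2* encodes the lipopeptide receptor. Its log2 signal was 8.90, 8.83, 8.69 and 8.65 in wild-type saline mice and 8.80 in the *NOS2*-/- saline mouse. It reached 10.89, 10.97 and 10.97 in wild-type mice at 7 h after LPS and 10.75, 10.87 and 11.01 in *NOS2*-/- mice. At 22 h it was 9.90, 9.43 and 9.80 in wild-type mice and 10.87, 10.59 and 10.57 in *NOS2*-/- mice, so that the genotypes overlapped at 7 h and not at 22 h. The rise over saline was 4.51-fold (SE 0.11 on the log2 scale, adjusted p = 5.76e-10) at 7 h and 1.92-fold (SE 0.11, adjusted p = 7.21e-06) at 22 h in wild-type mice. Mice lacking NOS2 showed a rise of 4.21-fold (SE 0.17, adjusted p = 3.29e-07) at 7 h and 3.66-fold (SE 0.17, adjusted p = 8.63e-07) at 22 h.

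*Tlr3*, the receptor for double-stranded RNA, is the gene that differed least from saline in wild-type lungs at 22 h. By the probe set that represents it (1422782_s_at) the log2 signal was 8.86, 8.90, 9.0 and 8.89 in wild-type saline mice, 10.18, 10.43 and 10.38 at 7 h after LPS, and 8.77, 8.66 and 9.14 at 22 h. The *NOS2*-/- mice read 8.79 with saline, 10.11, 10.44 and 10.60 at 7 h, and 10.28, 9.88 and 9.96 at 22 h. The wild-type mice at 22 h spanned the range of the saline mice, and the *NOS2*-/- mice at 22 h lay more than 0.7 above the highest of them. *Tlr3* rose 2.68-fold in wild-type mice at 7 h (SE 0.13 on the log2 scale, adjusted p = 5.15e-07), and at 22 h its difference from saline was -0.05, with a 95% confidence interval of -0.33 to 0.23. In *NOS2*-/- mice it rose 3.01-fold at 7 h (SE 0.20, adjusted p = 2.72e-05) and 2.38-fold at 22 h (SE 0.20, adjusted p = 0.000214). The other *Tlr3* probe set (1422781_at) was called at 7 h in wild-type mice (1.23) and at both times in *NOS2*-/- mice (1.09 and 0.97), and its difference in wild-type mice at 22 h was 0.38 (adjusted p = 0.113). That last difference was 0.60 and called (adjusted p = 0.00347) without replicate 2 of wild-type LPS 22 h, so the 2 probe sets gave different accounts of wild-type lungs at 22 h.

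*Myd88*, the adaptor shared by nearly all Toll-like receptors, rose with narrow spread. Its log2 signal was 10.35, 10.34, 10.14 and 10.25 in wild-type saline mice and 10.24 in the *NOS2*-/- saline mouse. After LPS it was 11.98, 12.12 and 12.02 in wild-type mice at 7 h, 11.73, 11.31 and 11.60 at 22 h, 11.94, 12.01 and 12.07 in *NOS2*-/- mice at 7 h, and 11.89, 11.86 and 11.87 at 22 h. All LPS mice lay above all saline mice, and at 22 h the genotypes did not overlap. The rise in wild-type mice was 3.41-fold (adjusted p = 4.31e-10) at 7 h and 2.42-fold (adjusted p = 2.2e-08) at 22 h, with an SE of 0.09 on the log2 scale. In *NOS2*-/- mice it was 3.41-fold (adjusted p = 1.52e-07) and 3.11-fold (adjusted p = 3.08e-07), with an SE of 0.13.

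*Tirap* encodes the adaptor that brings MyD88 to Toll-like receptors 2 and 4. By the probe set that represents it (1457676_at) the log2 signal was 8.76 to 9.08 in wild-type saline mice, 9.44, 9.50 and 9.57 at 7 h after LPS, and 9.93, 9.24 and 9.82 at 22 h. It was 8.84 in the *NOS2*-/- saline mouse, 9.35, 9.38 and 9.26 in *NOS2*-/- mice at 7 h, and 9.42, 9.39 and 9.49 at 22 h. Every LPS mouse was above every saline mouse by this probe set. *Tirap* rose 1.49-fold in wild-type mice at 7 h (SE 0.13 on the log2 scale, adjusted p = 0.00212) and 1.67-fold at 22 h (SE 0.13, adjusted p = 0.000278), and 1.51-fold in *NOS2*-/- mice at 22 h (SE 0.19, adjusted p = 0.0299), while 0.49 at 7 h was not called (adjusted p = 0.0825). The difference at 7 h was called without replicate 2 of wild-type LPS 22 h (adjusted p = 0.00136), with the wild-type saline mice as control (adjusted p = 0.0208), after quantile normalization (adjusted p = 0.013) and with the mean of both probe sets (adjusted p = 0.00504). The other *Tirap* probe set (1418685_at) differed from this account, with -0.02 in wild-type mice at 7 h (adjusted p = 0.943) and 0.39 at 22 h, where replicate 2 read 8.55 and the other mice 7.93 and 7.90. In *NOS2*-/- mice it gave 0.25 at 7 h (adjusted p = 0.383) and 0.14 at 22 h (adjusted p = 0.653), neither called. Its difference at 7 h was called without replicate 2 of wild-type LPS 22 h (adjusted p = 0.0427) and with the wild-type saline mice as control (adjusted p = 0.0301).

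At 3-fold or more, with no test, *Cd14* was the 1 gene of the 8 in wild-type lungs at 22 h, where 1.27% of all probe sets were that high, and *Cd14*, *Tlr2* and *Myd88* were 3 of the 8 in *NOS2*-/- lungs, where 1.76% were.

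Markers of several cell types moved with the rises above. All 11 measured neutrophil markers of 14 listed rose in wild-type mice at both times and in *NOS2*-/- mice at 22 h, and 9 rose in *NOS2*-/- mice at 7 h. Their mean log2 signal above the array median ran from 0.75 to 1.04 in wild-type saline mice and was 1.10 in the *NOS2*-/- saline mouse. It ran from 3.30 to 3.47 in wild-type mice at 7 h, from 3.50 to 3.62 at 22 h, from 3.01 to 3.24 in *NOS2*-/- mice at 7 h and from 3.58 to 3.63 at 22 h. Monocyte and macrophage markers averaged 1.37 to 1.47 in wild-type saline mice, 1.61 to 1.65 in wild-type mice at 7 h and 1.64 to 1.85 at 22 h, with 5 of 13 higher and 5 lower at 7 h and 6 higher and 3 lower at 22 h. They were at 1.50 in the *NOS2*-/- saline mouse, 1.39 to 1.58 at 7 h and 1.50 to 1.54 at 22 h, with 1 higher and 4 or 5 lower, so that every wild-type LPS mouse lay above the wild-type saline mice and the *NOS2*-/- LPS mice lay on both sides of their saline mouse. Of 11 endothelial markers 8 or 9 were lower in each LPS group, and 1 was higher in each except *NOS2*-/- mice at 7 h. Of 8 alveolar type 2 markers 7 were lower in wild-type mice at each time and 3 and 5 in *NOS2*-/- mice. In each LPS group 1 of these 8 was higher. Of 5 B cell markers 3 and 4 were lower in wild-type and 2 and 4 in *NOS2*-/- mice, and none was higher. Of all probe sets, 14.4% rose and 17.9% fell in wild-type mice at 7 h, and 12.8% and 20.0% at 22 h. In *NOS2*-/- mice 8.78% rose and 13.7% fell at 7 h, and 11.6% and 16.0% at 22 h. In whole lung, more cells of a type and more RNA per cell cannot be told apart, and the part of these cells in the rises was not tested.

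**Figure D2:**
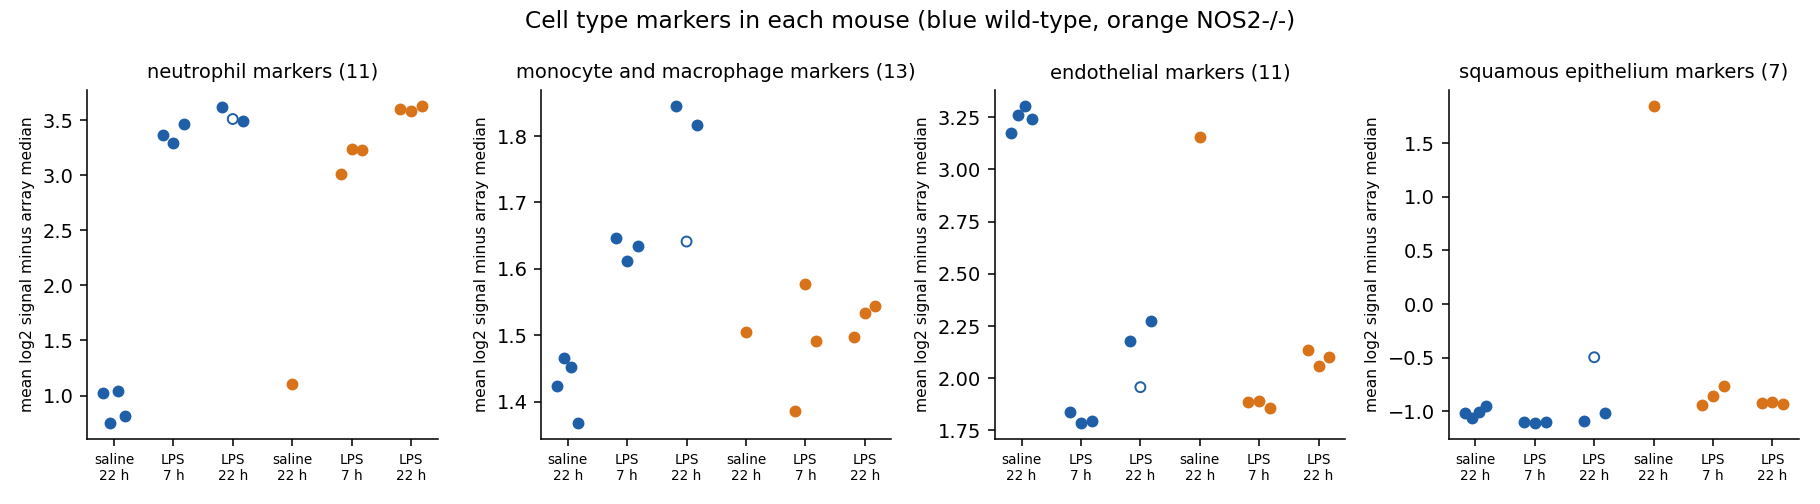
Mean log2 signal of 4 marker lists minus the median of the array (vertical axis) in each mouse, by group (horizontal axis), with the number of markers measured in brackets. The open circle is wild-type LPS 22 h replicate 2. Neutrophil markers lie between 3.01 and 3.63 in every LPS mouse, monocyte and macrophage markers are lower in *NOS2*-/- than in wild-type mice at 22 h after LPS, and squamous epithelium markers stand out in the *NOS2*-/- saline mouse at 1.85.

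The 3 genes that were called higher in *NOS2*-/- than in wild-type lungs at 22 h, *Tlr2*, *Tlr3* and *Myd88*, have promoters in the RefSeq table of build GRCm38.p6, which holds entries for 6 of the 10 genes. These promoters are shown for that call alone, which is no test of shared regulation. Each is printed from 250 bases before a RefSeq transcript start to 20 after it, 5′ to 3′ on the minus strand. Capitals mark matches, on either strand, to the NF-kB motif kappa B, to GAAANNGAA (a core of interferon-response elements) and to TTCNNNGAA (bound by STAT factors).
Tlr2, chr3:83841589-83841858: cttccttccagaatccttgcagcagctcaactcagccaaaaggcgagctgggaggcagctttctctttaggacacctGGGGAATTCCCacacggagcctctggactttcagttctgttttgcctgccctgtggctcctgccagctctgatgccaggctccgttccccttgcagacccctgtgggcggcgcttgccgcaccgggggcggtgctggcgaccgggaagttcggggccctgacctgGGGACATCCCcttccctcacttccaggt
Tlr3, chr8:45410361-45410630: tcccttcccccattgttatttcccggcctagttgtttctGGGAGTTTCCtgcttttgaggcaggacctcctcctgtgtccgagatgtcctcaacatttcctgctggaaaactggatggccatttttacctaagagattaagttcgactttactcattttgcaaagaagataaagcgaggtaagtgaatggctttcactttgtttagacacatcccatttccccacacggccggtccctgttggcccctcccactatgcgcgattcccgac
Myd88, chr9:119339999-119340268: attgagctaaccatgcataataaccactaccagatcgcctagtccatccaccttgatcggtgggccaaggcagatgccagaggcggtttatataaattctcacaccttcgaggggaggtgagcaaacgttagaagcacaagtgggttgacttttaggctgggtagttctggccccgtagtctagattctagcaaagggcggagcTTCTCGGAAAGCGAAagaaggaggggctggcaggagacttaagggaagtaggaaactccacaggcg
In *Tlr2*, kappa B matched at -173 and -172, which overlap, and at -8, counted from the transcript start to the first base of the match. In *Tlr3* it matched at -211, and in *Myd88* the matches were GAAANNGAA at -40 and TTCNNNGAA at -46, which overlap. Of 32851 RefSeq promoters of 300 bases, with 250 before the start, 8.46% held kappa B, 8.56% GAAANNGAA and 8.30% TTCNNNGAA. Those promoters ran to 50 bases after the start, farther than the sequences printed here. A match describes letters only.

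From 7 h to 22 h after LPS, 4 of the 8 genes fell in wild-type lungs, where 7.68% of all probe sets fell, and none rose, where 3.15% did. *Tlr3* fell by 1.47 on the log2 scale (SE 0.14, adjusted p = 1.14e-05), *Tlr2* fell by 1.23 (SE 0.12, adjusted p = 1.22e-05), *Ly96* fell by 0.66 (SE 0.19, adjusted p = 0.0359) and *Myd88* fell by 0.50 (SE 0.09, adjusted p = 0.00311). The calls of *Myd88* (adjusted p = 0.126) and *Ly96* (adjusted p = 0.35) were lost with the 2 groups fitted alone. The 4 genes encode a double-stranded RNA receptor, a lipopeptide receptor, a subunit of the LPS receptor and the common adaptor. The other *Tlr3* probe set fell as well, by 0.85 (SE 0.19, adjusted p = 0.00839). *Cd14* and *Tlr4* differed between the times by 0.17 and 0.20, with 95% confidence intervals of -0.09 to 0.42 and -0.05 to 0.45, and were not called. The call of *Ly96* rests on single mice too: it was lost without any 1 of the 3 wild-type mice of 7 h, at adjusted p values of 0.055 to 0.128, and without replicate 2 or 3 of *NOS2*-/- LPS 22 h, at 0.0501 and 0.0505. Without replicate 2 of wild-type LPS 22 h the fall was 0.34 (adjusted p = 0.0236) and *Tirap* was called higher at 22 h, by 0.37 (adjusted p = 0.00524).

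None of the 8 genes was called between 7 h and 22 h in *NOS2*-/- lungs, where 4.65% of all probe sets rose and 3.16% fell by the same limma test. At an unadjusted p under 0.05 the count was 1, *Tlr3*, with -0.34 (SE 0.14, adjusted p = 0.183). *Tlr2* differed by -0.20 (95% confidence interval -0.46 to 0.05) and *Myd88* by -0.14 (-0.34 to 0.07). Without replicate 2 of wild-type LPS 22 h, which enters through the common estimate of spread, *Ly96* was called with -0.26 (adjusted p = 0.0426).

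**Figure D3:**
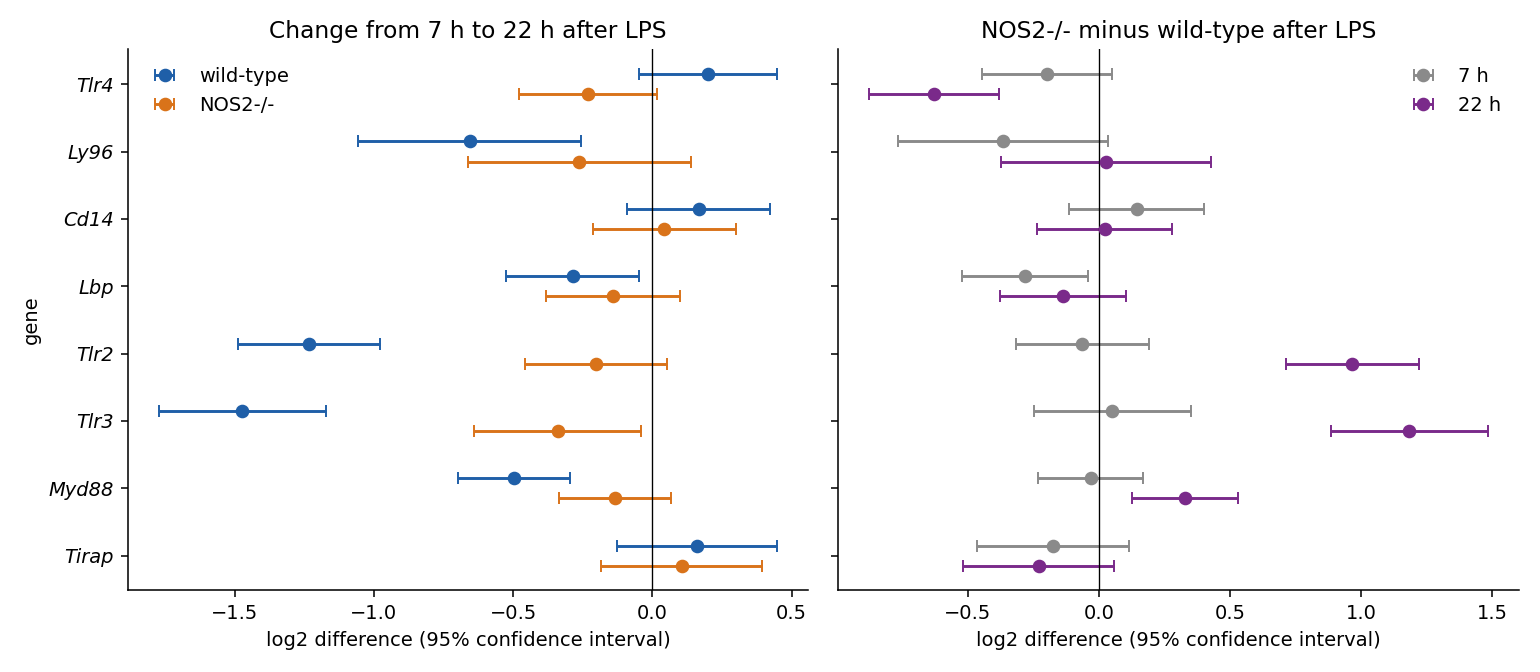
Log2 differences (horizontal axis) of the 8 genes (vertical axis) with 95% confidence intervals, from the limma fit of all 17 arrays. The left panel gives the change from 7 h to 22 h after LPS in wild-type (blue) and *NOS2*-/- mice (orange), and the right panel *NOS2*-/- minus wild-type at 7 h (grey) and 22 h (purple). *Tlr3*, at -1.47, and *Tlr2*, at -1.23, stand farthest to the left in wild-type mice and farthest to the right between the genotypes at 22 h, and *Tlr4* is lower in *NOS2*-/- mice at 22 h, at -0.63.

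At 7 h after LPS none of the 8 genes was called between the genotypes, where 2.01% of all probe sets were called in either direction. At an unadjusted p under 0.05 the count was again 1, *Lbp*, with -0.28 (SE 0.11, adjusted p = 0.159). The differences of *Tlr2*, *Tlr3* and *Myd88* at this time were -0.06, 0.05 and -0.03, with 95% confidence intervals of -0.32 to 0.19, -0.25 to 0.35 and -0.23 to 0.17. The other *Tlr4* probe set was lower in *NOS2*-/- mice (-0.65, SE 0.16, adjusted p = 0.0492), and the representing one was not called at -0.20 (adjusted p = 0.315). Without replicate 2 of wild-type LPS 22 h, *Ly96* (-0.37, adjusted p = 0.00852) and *Lbp* (-0.28, adjusted p = 0.0177) were called lower in *NOS2*-/- mice at 7 h, where 14.1% of all probe sets were. The other *Tirap* probe set (1418685_at) was then called higher (0.37, adjusted p = 0.00156), where 12.8% of all probe sets were. The representing *Tirap* probe set was not called (-0.18, adjusted p = 0.0874).

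At 22 h after LPS 4 of the 8 genes were called between the genotypes. Of these, 3 were higher in *NOS2*-/- lungs, where 9.63% of all probe sets were, and 1 was lower, where 6.81% were. *Tlr3* was 2.27-fold higher (log2 1.18, SE 0.14, adjusted p = 6.1e-05), *Tlr2* 1.95-fold higher (0.97, SE 0.12, adjusted p = 7.87e-05) and *Myd88* 1.25-fold higher (0.33, SE 0.09, adjusted p = 0.0268). *Tlr4* was 1.55-fold lower (-0.63, SE 0.12, adjusted p = 0.00177). The ranges of the genotypes did not overlap for these 4 genes, which restates the calls in the same mice and adds nothing to them. The share of all probe sets with such separate ranges was not computed. The second probe sets of *Tlr3* and *Tlr4* were called in the same directions, by 0.77 (adjusted p = 0.0109) and -0.75 (adjusted p = 0.00443). Both were dim, at percentiles 14.73 and 14.69 of signal among all probe sets in wild-type saline mice, and the representing *Tlr4* probe set was at 29.96. The call of *Myd88* was lost with the 2 groups fitted alone (adjusted p = 0.207) and without any 1 of the 3 *NOS2*-/- mice of 22 h, at adjusted p values of 0.0717 to 0.0864.

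Without replicate 2 of wild-type LPS 22 h, 7 of the 8 genes were called at 22 h, 3 higher and 4 lower, where 11.2% of all probe sets were higher and 15.4% lower. *Tlr3* (1.09), *Tlr2* (0.83) and *Myd88* (0.21, adjusted p = 0.0489) were still higher in *NOS2*-/- lungs and *Tlr4* (-0.66) lower. *Tirap* (-0.44, adjusted p = 0.000823), *Ly96* (-0.29, adjusted p = 0.0375) and *Lbp* (-0.28, adjusted p = 0.0249) were then also lower. The other *Tirap* probe set (1418685_at) gave 0.07 under that setting and was not called (adjusted p = 0.53), so the lower *Tirap* was seen by the representing probe set only. With all mice *Ly96* differed by 0.03, so its direction at 22 h is set by that mouse, and *Cd14* was not called in either case. The monocyte and macrophage markers were lower in *NOS2*-/- mice in this comparison, 6 of 13 measured and none higher, with mean levels above the array median of 1.50 to 1.54 against 1.64 to 1.85 in wild-type mice. Neutrophil markers were at 3.58 to 3.63 against 3.50 to 3.62, with 2 of 11 higher and 3 lower. Their part in the differences of the 8 genes was not tested.

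The difference between genotypes in the change from 7 h to 22 h was called for *Tlr2* and *Tlr3*, 2 of the 8 genes, where 2.49% of all probe sets were called in the same direction. The change in *NOS2*-/- mice exceeded that in wild-type mice by 1.03 for *Tlr2* (SE 0.17, adjusted p = 0.00453) and by 1.13 for *Tlr3* (SE 0.20, adjusted p = 0.00727). For *Myd88* the difference was 0.36 (SE 0.13, adjusted p = 0.168), for *Ly96* 0.39 (SE 0.27, adjusted p = 0.402) and for *Tlr4* -0.43 (SE 0.16, adjusted p = 0.18). The fall of *Myd88* and *Ly96* in wild-type mice is thus not shown to differ from the change in *NOS2*-/- mice. The values were 0.89 for *Tlr2* and 1.04 for *Tlr3* without replicate 2 of wild-type LPS 22 h, both called. The other *Tlr3* probe set gave 0.73 (SE 0.27) and was not called (adjusted p = 0.161).

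The difference between genotypes in the response to LPS at 22 h, which rests on the 1 *NOS2*-/- saline mouse, was also called for *Tlr2* and *Tlr3*, where 2.52% of all probe sets were called in that direction. It was 0.93 for *Tlr2* (SE 0.20, adjusted p = 0.0151) and 1.30 for *Tlr3* (SE 0.24, adjusted p = 0.00532), while the other *Tlr3* probe set gave 0.58 (SE 0.32, adjusted p = 0.401). The call of *Tlr2* was lost with the 4 groups of this comparison fitted alone (adjusted p = 0.0745). *Tlr4* had -0.53 (SE 0.20, adjusted p = 0.161) by this test, and its other probe set -0.73 (adjusted p = 0.157), which was called without replicate 2 of wild-type LPS 22 h (-0.94, adjusted p = 0.0036). With the 4 wild-type saline mice as control for both genotypes the saline term cancels and the contrast is the difference between genotypes at 22 h given above, in which *Tlr4* and *Myd88* were called too. The *NOS2*-/- saline mouse read 8.80 for *Tlr2*, inside the range of the wild-type saline mice, and 8.79 for *Tlr3*, below their lowest value of 8.86. This comparison shares its 22 h LPS mice with the preceding ones and is no separate evidence.

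The pathway around these genes was examined through 56 other genes listed by role, of which 43 were measured. In wild-type lungs at 22 h after LPS 21 of the 43 rose and 5 fell, where 12.8% of all probe sets rose and 20.0% fell. In *NOS2*-/- lungs 21 rose and 4 fell, where 11.6% of all probe sets rose and 16.0% fell. At 7 h the counts were 19 higher and 5 lower in wild-type lungs, where 14.4% of all probe sets rose and 17.9% fell. They were 16 higher and 3 lower in *NOS2*-/- lungs at 7 h, where 8.78% rose and 13.7% fell. From 7 h to 22 h 11 fell and 1 rose in wild-type lungs, where 7.68% of all probe sets fell and 3.15% rose, and 3 fell and 5 rose in *NOS2*-/- lungs, where 3.16% and 4.65% did. The genes named next were those with the largest fold changes among called genes of each role.

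Among 7 other Toll-like receptors, counting their relative *Cd180*, *Tlr7*, the receptor for single-stranded RNA, rose in both genotypes at 22 h, by 0.54 in wild-type (SE 0.12, adjusted p = 0.00175) and 0.93 in *NOS2*-/- lungs (SE 0.18, adjusted p = 0.000875). *Tlr6*, a partner of Toll-like receptor 2, rose by 0.32 in wild-type lungs (SE 0.11, adjusted p = 0.0317), and its 0.29 in *NOS2*-/- lungs was not called. *Cd180* and *Ly86*, the relatives of *Tlr4* and *Ly96* that form a complex on B cells, differed from saline at 22 h by -0.30 and -0.03 in wild-type and -0.03 and 0.04 in *NOS2*-/- lungs, none of them called. *Hsp90b1*, the endoplasmic reticulum chaperone that folds Toll-like receptors, was lower in *NOS2*-/- than in wild-type lungs by 0.94 at 22 h and 0.81 at 7 h, and was called at both times.

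Of 13 adaptors and signalling enzymes 5 were higher and 1 lower in *NOS2*-/- than in wild-type lungs at 22 h, where 9.63% and 6.81% of all probe sets were. *Traf6*, the ubiquitin ligase downstream of IRAK kinases, was higher by 1.00, at 9.76 to 10.07 against 8.37 to 9.29. *Tbk1*, a kinase of the interferon arm, was higher by 0.67, at 11.46 to 11.72 against 10.29 to 11.29. The wild-type mice at 22 h spread widely, with an SD of 0.48 for *Traf6* and 0.53 for *Tbk1*. Their lowest *Traf6* value lay below the wild-type saline mice (8.51 to 8.72), and their lowest *Tbk1* value lay among them (10.06 to 10.36). *Ikbke*, a relative of *Tbk1*, rose in both genotypes and less in *NOS2*-/- lungs, by 2.34 against 3.22 in wild-type lungs, and the difference in response was called (-0.88, SE 0.17, adjusted p = 0.00726). *Pik3ap1*, an adaptor to phosphoinositide 3-kinase, rose by 0.64 and 0.76. Of the 3 interferon regulatory factors, *Irf7* rose by 2.88 and 3.80, *Irf5* by 0.73 and 0.81, and *Irf3* fell by 0.39 in wild-type lungs and fell by 0.83 in *NOS2*-/- lungs.

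Of 9 measured inhibitors of the pathway 7 rose and 1 fell at 22 h in each genotype, where 12.8% of all probe sets rose and 20.0% fell in wild-type and 11.6% and 16.0% in *NOS2*-/- lungs. *Socs1*, which restrains cytokine and Toll-like signalling, rose by 1.20 in wild-type and 2.69 in *NOS2*-/- lungs, and *Tnfaip3*, the A20 enzyme that removes ubiquitin from signalling proteins, by 1.46 and 2.14. *Atf3*, a repressor of Toll-like target genes, rose by 0.49 and 1.47. These 3 genes fell from 7 h to 22 h in wild-type lungs, as did *Trim30a*, and the difference between genotypes in that change was called for *Socs1* (1.82, SE 0.21, adjusted p = 0.000565), *Atf3* (1.01, SE 0.14, adjusted p = 0.00144) and *Tnfaip3* (0.98, SE 0.16, adjusted p = 0.00488). Those values have the direction of *Tlr2* and *Tlr3*. *Trim30a* fell in both genotypes and its difference was -0.10 (adjusted p = 0.665).

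Among 7 measured genes that handle LPS outside the Toll-like receptors, *Itgam* encodes the CD11b chain of neutrophils and monocytes. It was not in the marker lists used above. *Itgam* rose by 3.53 in wild-type and 2.15 in *NOS2*-/- lungs at 22 h (difference -1.38, SE 0.34, adjusted p = 0.0284). *Casp4*, the intracellular receptor of LPS, rose by 1.97 and 2.34. *Scarb1*, a lipoprotein receptor that takes up LPS, fell by 1.31 in wild-type lungs and rose by 0.67 in *NOS2*-/- lungs (difference 1.98, SE 0.20, adjusted p = 3.03e-05). *Pltp*, which transfers phospholipid and LPS among lipoproteins, fell by 2.51 in wild-type lungs and fell by 1.06 in *NOS2*-/- lungs (difference 1.45, SE 0.29, adjusted p = 0.0103). The call of *Scarb1* in *NOS2*-/- lungs rests on the single saline mouse, which read 10.96 against 11.40 to 11.47 in wild-type saline mice, while after LPS at 22 h the *NOS2*-/- mice read 11.60 to 11.66 and the wild-type mice 9.79 to 10.32. Against the 4 wild-type saline mice *Scarb1* in *NOS2*-/- lungs at 22 h differed by 0.185 and was not called (adjusted p = 0.201). Without replicate 2 of wild-type LPS 22 h the pathway genes called for a difference in the change from 7 h to 22 h were 8 in place of 5, for a difference in the response at 22 h 12 in place of 6, between the genotypes at 7 h 13 in place of 3, and from 7 h to 22 h in *NOS2*-/- lungs 14 in place of 8. Under that setting 7.20%, 15.2%, 26.9% and 19.9% of all probe sets were called in these 4 comparisons.

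**Figure D4:**
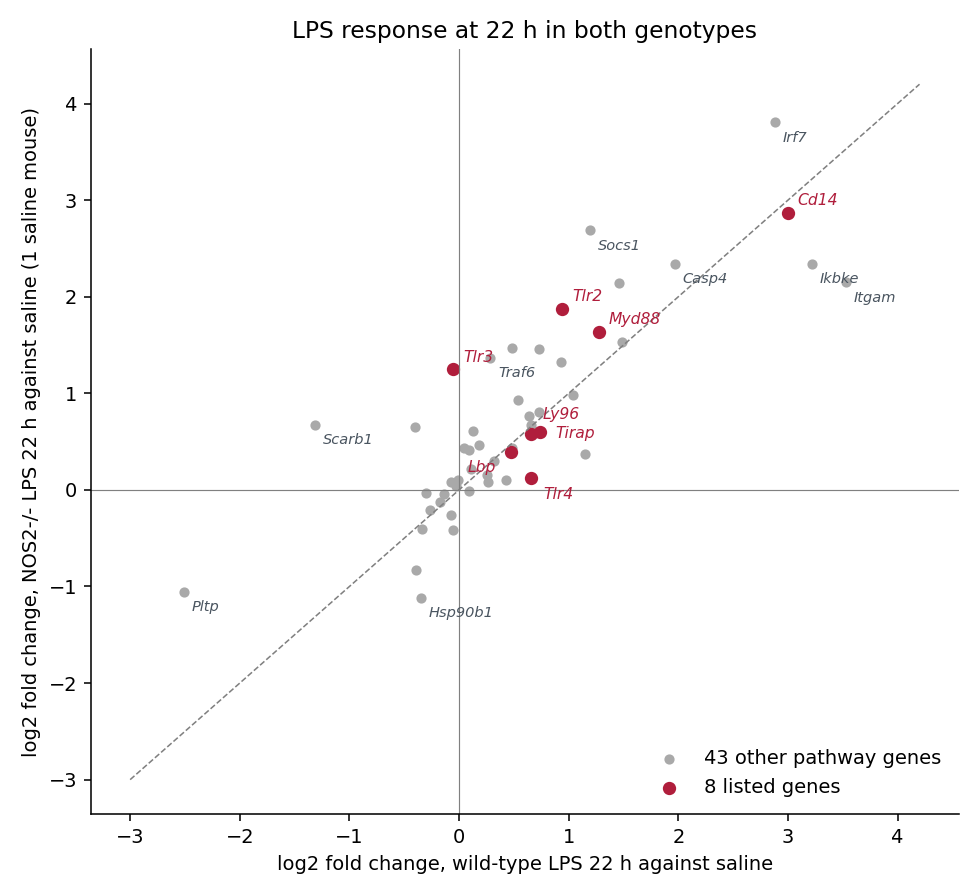
Log2 fold change at 22 h after LPS against saline in wild-type mice (horizontal axis) and in *NOS2*-/- mice (vertical axis, against 1 saline mouse), for the 8 genes (red) and the 43 other pathway genes measured (grey). The dashed line marks equal change. *Cd14* lies near the line, *Tlr3*, *Tlr2*, *Socs1* and *Scarb1* lie above it, and *Tlr4*, *Ikbke* and *Itgam* below it.

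The genes whose group means were most like those of 4 of the genes, by the root mean square difference over the 5 groups other than wild-type saline, each expressed relative to wild-type saline, were sought over all genes. For *Tlr2* they were *Pml* (0.11), *Daxx* (0.14) and *Ccl22* (0.15). For *Cd14* they were *Socs3* (0.21), *Hpx* (0.24) and *Selp* (0.25). For *Tlr4* they were *Pik3cd* (0.07), *Ahcy* (0.09) and *Slfn3* (0.09), and for *Lbp* they were *Tnf* (0.05), *Ftsj3* (0.07) and *Txn1* (0.08). *Pml* rose by 2.09 in wild-type mice at 7 h and by 0.96 at 22 h, and was 2.07 and 1.82 above wild-type saline in *NOS2*-/- mice, beside 2.17, 0.94, 2.11 and 1.91 for *Tlr2*.

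Ordered by group mean, *Tlr2* stood at 10.94 ± 0.05 (SD, n = 3) in wild-type mice at 7 h, 10.88 ± 0.13 and 10.67 ± 0.17 in *NOS2*-/- mice at 7 h and 22 h, 9.71 ± 0.25 in wild-type mice at 22 h and 8.77 ± 0.12 (n = 4) in wild-type saline mice. Neighbours among the first 3 overlapped, and the wild-type mice at 22 h overlapped neither the group above nor the saline mice. *Tlr4* stood at 8.32 ± 0.17 and 8.12 ± 0.12 in wild-type mice at 22 h and 7 h, 7.92 ± 0.08 in *NOS2*-/- mice at 7 h, 7.69 ± 0.07 in *NOS2*-/- mice at 22 h and 7.66 ± 0.21 in wild-type saline mice. For *Tlr4* the *NOS2*-/- mice at 7 h overlapped neither neighbour in this order, and the last 2 groups overlapped each other. The orders of *Cd14* and *Lbp* placed every LPS group above both saline groups with no overlap.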

How the data were processed

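RNA of whole lungs was hybridised to Affymetrix MOE430A arrays, 1 array per mouse. The deposited values are log2 signals that, per the labels, the authors made with the affy package (its version and options: not given in the sources used here). They were used as deposited. Array medians ran from 8.46 to 8.55. Of 22690 probe sets 64 controls were left out and 22626 tested. Symbols came from GEO's probe table and were brought to GRCm38.p6 by gene ID, and 20380 probe sets named 1 gene, 691 several and 1555 none. The brightest probe set over all arrays represents a gene.

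All 17 arrays were fitted in limma 3.58.1 (R 4.3.3) with 1 mean per group and default empirical Bayes settings. Benjamini-Hochberg adjustment ran over 22626 probe sets, and a call is an adjusted p under 0.05 by this limma test. Confidence intervals are at 95% and not adjusted. SEs come from the fit, SDs from the mice of a group. A fold rule of at least 3 was applied without a test. The fit was tested on simulated data. The labels do not say whether mice of 1 group were handled apart. The p values measure the spread between these samples and do not account for any such handling. The number of arrays limits the precision. The genes and lists were chosen with earlier results of these data known. Genes were named if listed, or if among up to 4 called genes per role with the largest fold change at 22 h in either genotype. Ly86, Cd180 and the 3 genes most like Tlr4, Cd14, Tlr2 and Lbp were named besides. Alternatives covered scaling, filters, probe choice, controls, thresholds, a replicate block and leaving out each mouse.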

Additional observations from a re-analysis of the deposited data

Results flagged for a closer look

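The change of *Tlr2* from 7 h to 22 h after LPS differed between the genotypes by 1.03 on the log2 scale (*NOS2*-/- minus wild-type, interaction contrast in limma). For *Tlr3* the same difference was 1.13. The response to LPS at 22 h differed by 0.93 for *Tlr2* and by 1.30 for *Tlr3*, in the same direction. Each was called by a test of the difference itself. The response of *Tlr2* at 22 h was not called with its 4 groups fitted alone (adjusted p = 0.0745). Both contrasts use the same 22 h LPS mice, so the difference in response is no separate evidence. In these same mice the ranges of the genotypes overlapped at 7 h and not at 22 h for both genes, which is no further test. The other *Tlr3* probe set gave 0.73 and 0.58 for the same contrasts and was called in neither. No mouse stood apart from its group in the 4 wild-type saline mice by Dixon's criterion, and groups of 3 were not examined in this way.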

How the results depend on the processing

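Counts of the 8 genes called came to 290 values under other settings, of which 280 stayed within 1.5 times the reported count. With the compared groups fitted alone the count was 2 between the genotypes at 7 h, 2 from 7 h to 22 h in wild-type mice, 2 in *NOS2*-/- mice and 1 for the difference in response at 22 h. Fitted alone, the lost genes included *Ly96* and *Myd88* from 7 h to 22 h in wild-type mice and *Tlr2* in the difference in response. That last count was 4 with the wild-type saline mice as control, which turns it into the difference between genotypes at 22 h, and 1 at an adjusted p under 0.01. The 2-fold rule gave 2 genes in wild-type mice at 22 h. Leaving out each mouse gave 0 to 2 genes between the genotypes at 7 h, 3 to 7 at 22 h, 3 to 5 from 7 h to 22 h in wild-type mice, 0 to 1 in *NOS2*-/- mice, and 2 for both differences between genotypes. It gave 8 in wild-type mice at 7 h, 6 to 7 at 22 h, and 4 to 7 in *NOS2*-/- mice at each time. *Ly96* reversed between the genotypes at 22 h without replicate 2 of wild-type LPS 22 h, to -0.29 (range over the mice left out -0.29 to 0.23), and was lost at 22 h in wild-type mice without replicate 1 (adjusted p = 0.0528). *Ly96* in *NOS2*-/- mice at 7 h was lost without any 1 of those mice (adjusted p = 0.0522 to 0.0658), *Lbp* there without replicates 1 and 2 (0.0613 and 0.0523), and *Tirap* in *NOS2*-/- mice at 22 h without replicates 1 and 3 (0.0543 and 0.0681). *Lbp* fell from 7 h to 22 h in wild-type mice without their replicate 3 at 22 h (-0.37, adjusted p = 0.0483). For single genes, 25 values were newly called and 30 lost under an alternative. Deviations from the group means correlated at r of -0.38 to 0.36 between same-numbered mice of different groups, and at -0.40 to 0.42 between the others. Deviations within a group sum to 0, so these correlations cannot show whether same-numbered mice were handled together. With the replicate block the counts were 5 and 4 in *NOS2*-/- mice at 7 h and 22 h and 3 between the genotypes at 22 h, where *Myd88* was lost (adjusted p = 0.0571). The filter on dim probe sets, at the 40th percentile of mean signal, left 7 of the 8 genes. *Tlr4*, the dimmest of the 8 over all arrays, was not among them. The *NOS2*-/- LPS groups were not fitted alone with the 1 *NOS2*-/- saline mouse, and leaving that mouse out gives no value. Settings added after seeing the data were the pathway counts without replicate 2 or with the other control. The causes of these shifts were not tested.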
